A study of Mus musculus and Rattus norvegicus with 35 samples.

Results

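CA1 neuropil was set against CA1 somata in mouse and rat, with 1 library of each layer in each species, so 4 of the 35 samples of a study of circular RNAs in brain and other tissues. The libraries were chosen by their labels alone. Mouse neuropil and mouse somata came from C57BL/6 animals, and rat neuropil and rat somata from Sprague Dawley animals, all at 4 weeks. In each species, acute slices of 500 µm were microdissected into both layers, RNA was extracted with TRIZOL, and rRNA was depleted, which keeps RNAs without a poly(A) tail. No drug or transgene is named for any of the 4 libraries, and the labels do not say how many animals went into a library.

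CA1 is the hippocampal field whose pyramidal neurons keep their cell bodies in a thin layer and send their dendrites into broad layers on both sides. The layers of dendrites and axons are the neuropil, and an RNA found there can come from dendrites and axons, from local interneurons, or from glia and vessels, whose cell bodies lie among the processes. Some mRNAs, such as those of the kinase subunit Camk2a and the postsynaptic protein dendrin (Ddn), are known to be carried into dendrites and translated near synapses. Circular RNAs (circRNAs) arise when the end of an exon is spliced back to an upstream exon, and as closed rings they are stable and known to be plentiful in neurons.

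The gene tables give TPM, a level per transcript length that sums to 1000000 in each library. They hold 24601 mouse and 22409 rat genes, with 15597 symbols in both tables, and 11353 of these reached 1 TPM in at least 1 library of each species and were tested. The 14670 genes of mouse neuropil at 1 TPM or more compare with 14134 in mouse somata, and the 13971 of rat neuropil with 13428 in rat somata. TPM keep no read depth, so none is known for the genes. The circRNA tables gave whole reads, 24376 in mouse neuropil and 13963 in mouse somata, and 24727 in rat neuropil and 16002 in rat somata. Differences are neuropil minus somata in log2(TPM + 1), taken within a species and then tested with limma over the species pairs, which are the only replication. A gene's own spread between the mouse and the rat pair gives 1 residual degree of freedom, and limma adds a prior of 8.06 from the spread of all genes, so most of what stands behind each p-value is shared by the genes.

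The dissection was first checked with the 3 genes given as markers of the layers. Ddn was at 3034 TPM in mouse neuropil and 1635 TPM in mouse somata, and at 2467 TPM in rat neuropil and 1442 TPM in rat somata. Camk2a was at 928 TPM in mouse neuropil and 615 TPM in mouse somata, and at 2090 TPM in rat neuropil and 1185 TPM in rat somata. Gfap, an intermediate filament of astrocytes, was at 452 TPM in mouse neuropil and 148 TPM in mouse somata, and at 1843 TPM in rat neuropil and 647 TPM in rat somata. Each of the 3 was higher in neuropil in both species, Gfap by the most. The mean differences were 0.83 ± 0.10 for Ddn (SE, limma adjusted p = 0.000893), 0.71 ± 0.10 for Camk2a (adjusted p = 0.00183) and 1.55 ± 0.10 for Gfap (adjusted p = 0.000199). In folds, Ddn was 1.86 times higher in mouse neuropil and 1.71 times higher in rat neuropil, and Gfap 3.05 and 2.85 times. None of the 3 was absent from the somata layer, so each layer held RNA of both dendrite-associated genes and of astrocytes.

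**Figure D1:**
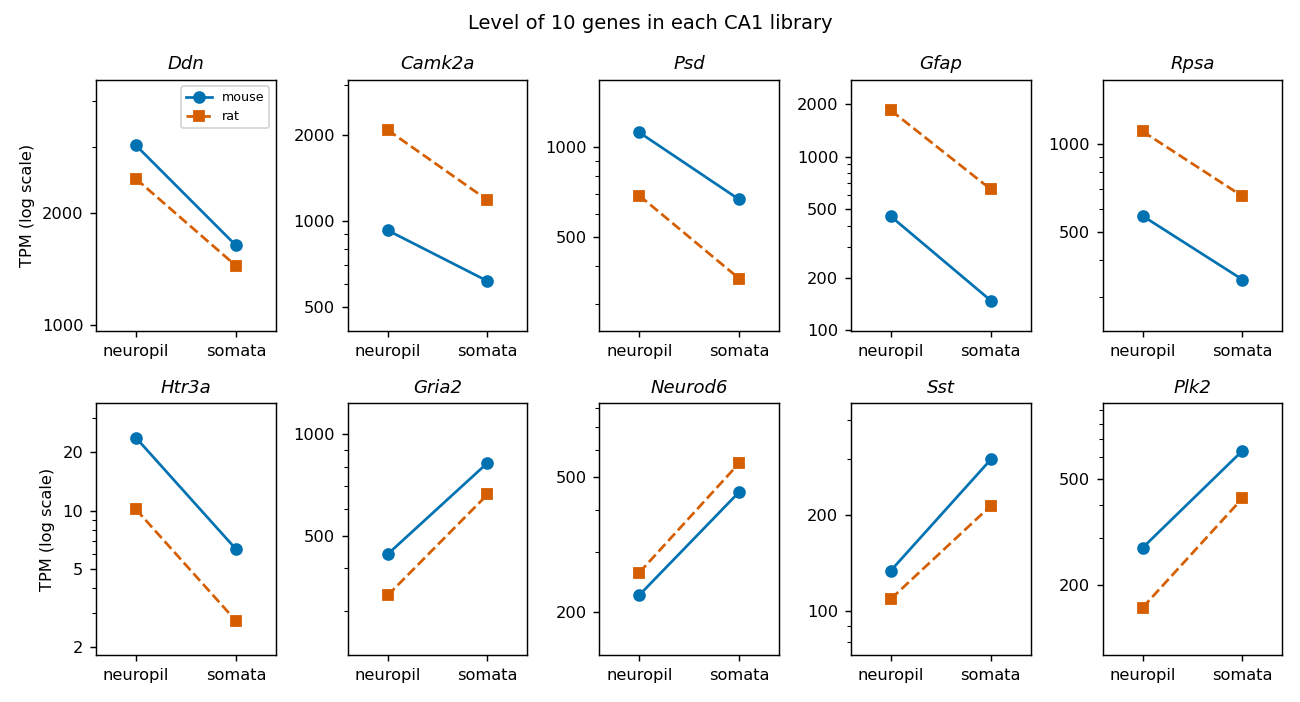
TPM on a log axis of 10 genes in the neuropil and somata libraries, with mouse as circles on full lines and rat as squares on dashed lines; each point is 1 library. The first 6 genes, from Ddn to Htr3a, were higher in neuropil in both species, and Gria2, Neurod6, Sst and Plk2 were lower in neuropil in both.

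Over all genes tested, 1978 were higher in neuropil (17.4%), 1092 were lower (9.62%) and 8283 did not pass limma's adjusted p of 0.05. With eBayes fitted without a trend 339 genes were lower. Without adjustment 4551 genes had a p under 0.05. The shares of all genes, 17.4% and 9.62%, are the background for each gene list below. The calls in the 2 directions differed in size. The median difference was 0.91 among the genes that were higher and -0.53 among those that were lower. A difference of at least 2-fold in both species was met by 366 genes higher in neuropil (3.22%) and by 19 genes lower in neuropil (0.167%). With a pseudocount of 5 TPM the 2-fold genes numbered 101 higher and 10 lower, and with 0.1 TPM 688 were higher. The direction was shared by the species in 8588 genes and opposite in 2765, with 4554 genes above 0 in both species (40.1%) and 4034 below 0 in both (35.5%). The differences in mouse and rat correlated at 0.67 over the 11353 genes, which are not independent of each other. The median of all genes was -0.00 in mouse and 0.07 in rat. Without the species pairing no gene passed.

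**Figure D2:**
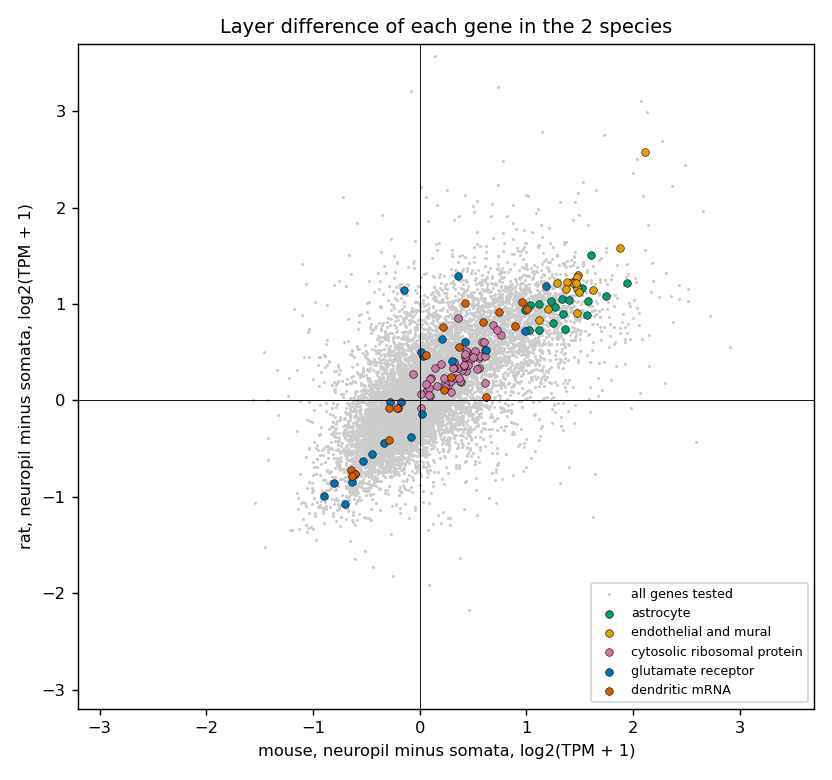
Difference between neuropil and somata in log2(TPM + 1) in mouse (horizontal) and rat (vertical); each grey point is 1 of 11353 genes, 3 of which lie outside the axes, and coloured points are members of 5 gene lists. Astrocyte and vascular markers sit in the upper right in both species, ribosomal protein genes nearer the centre, and glutamate receptor and dendritic mRNAs on both sides of 0.

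The genes with the largest shared increases in neuropil were led by regulators and structural proteins of non-neuronal cells. Id3, an inhibitor of basic helix-loop-helix transcription factors, was at 171 TPM in mouse neuropil and 29.6 TPM in mouse somata, and at 162 TPM in rat neuropil and 28.8 TPM in rat somata. Vim, the intermediate filament vimentin, was at 113 TPM in mouse neuropil and 21.2 TPM in mouse somata, and at 80.4 TPM in rat neuropil and 16.4 TPM in rat somata. Both genes thus showed a near equal difference in the species, of 2.49 and 2.45 for Id3 and of 2.37 and 2.23 for Vim. Tagln and Myh11, both proteins of smooth muscle, had mean differences of 2.34 and 2.10. Tagln stood at 23.0 TPM in mouse neuropil and 4.58 TPM in mouse somata, and at 38.3 TPM in rat neuropil and 5.58 TPM in rat somata. Genes of extracellular matrix were the next group, with Tnc (tenascin C), Col1a2 (a type I collagen chain) and Mgp (matrix Gla protein) at mean differences of 2.56, 2.27 and 2.18. Slc6a13, a GABA transporter known from the meninges, was at 13.9 TPM in mouse neuropil and 1.36 TPM in mouse somata, and at 8.86 TPM in rat neuropil and 1.53 TPM in rat somata. The growth factor gene Igf2 differed by 1.73 in mouse and 2.75 in rat, and the secreted serpin Serpinf1 by 2.07 and 3.11. The 12 largest also held the transcription factor Zic2 (1.98) and 1 receptor of interneurons, the serotonin-gated channel Htr3a (1.67). All 12 passed the test, with adjusted p from limma between 6.98e-05 for Id3 and 0.00118 for Htr3a.

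The genes with the largest shared decreases in neuropil, which are those with higher TPM in the somata layer, were of another kind. Atp2b1, a plasma membrane calcium pump, was at 575 TPM in mouse neuropil and 1339 TPM in mouse somata, and at 428 TPM in rat neuropil and 1092 TPM in rat somata. Plk2, a kinase induced by synaptic activity, was at 276 TPM in mouse neuropil and 635 TPM in mouse somata, and at 165 TPM in rat neuropil and 422 TPM in rat somata. Scg2, which encodes a secretogranin of dense-core vesicles, was at 191 TPM in mouse neuropil and 409 TPM in mouse somata, and at 183 TPM in rat neuropil and 430 TPM in rat somata. These 3 abundant mRNAs were lower in neuropil in both species, by 1.28, 1.27 and 1.16 on average. Wnt2, a secreted signalling ligand, had the largest shared decrease, with 8.36 TPM in mouse neuropil and 24.6 TPM in mouse somata, and 40.8 TPM in rat neuropil and 119 TPM in rat somata. Further members were the sodium channel subunit Scn3b (-1.18), the ryanodine receptor binding protein Fkbp1b (-1.09), the septin Sept6 (-1.08), the scaffold Iqgap2 (-1.07), the membrane proteins Mal2 (-1.21) and Tmem74 (-1.14), the sulfotransferase Chst9 (-1.23) and Crhbp (-1.30), which binds corticotropin-releasing hormone. The 12 decreases fell between -1.07 and -1.49 on average, so they were smaller than each of the 12 increases, which ran from 1.67 to 2.59.

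Promoter sequences of these genes were looked up because genes such as Scg2 and the somatostatin gene Sst, which was also lower in neuropil, are classic targets of the transcription factor CREB. The cAMP response element (CRE) was searched as TGACGTCA, which reads the same on both strands, and the CArG box, the element of smooth muscle genes bound by serum response factor, by its consensus, on both strands; the motifs cannot overlap. The promoters are RefSeq's for mouse (GRCm38.p6), 250 bases before to 50 after each start. Of the 12 genes with the largest decreases 7 had an entry there, and a CRE was found in Plk2 and Scg2, 2 of these 7. Scg2 had prompted the search, so its match repeats the reason for looking. The share among these 7 was not tested against that of all genes. Of the 12 with the largest increases 7 had an entry, with a CRE in 0 and a CArG box in 1, Igf2. Among all 27025 genes with such a promoter 2.03% held the CRE and 1.81% a CArG box. The windows show both CRE genes beside Sst, and Igf2 beside the smooth muscle myosin light chain gene Myl9. Sst and Myl9 were added by name as examples and are outside both sets of 12. The motif is in capitals, and each window runs 5′ to 3′ along its gene's strand.
Plk2, chr13:110394971-110395000, plus strand: agcgctcgccgTGACGTCAcgaggccccgc
Scg2, chr1:79440076-79440105, minus strand: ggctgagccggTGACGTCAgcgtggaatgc
Sst, chr16:23890874-23890903, minus strand: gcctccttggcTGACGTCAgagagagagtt
Igf2, chr7:142661408-142661437, minus strand: ccacagttttcCCATTTATGGagtcgcctt
Myl9, chr2:156775292-156775321, plus strand: gcaagcagaggCCTAATAAGGccgggctgg
The CRE began 62 bases before the start of Plk2, 68 before that of Scg2 and 48 before that of Sst, and the CArG box 155 bases before that of Igf2 and 161 before that of Myl9. The matches are a description of these letters, with no measure of binding in these libraries.

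Dendritic mRNAs did not move as 1 group. Of 19 mRNAs listed for their known presence in dendrites, 8 were higher in neuropil (42.1%, beside 17.4% of all genes), 4 were lower (21.1%, beside 9.62%) and 7 did not pass, with a median of 0.22 in mouse and 0.24 in rat beside -0.00 and 0.07 for all genes. Ppp1r9b, which encodes the spine protein spinophilin, was at 876 TPM in mouse neuropil and 436 TPM in mouse somata, and at 1043 TPM in rat neuropil and 538 TPM in rat somata. Psd, an exchange factor for the GTPase Arf6 at the postsynapse, was at 1123 TPM in mouse neuropil and 670 TPM in mouse somata, and at 691 TPM in rat neuropil and 364 TPM in rat somata. Dlgap3, a scaffold of the postsynaptic density long known as a dendritic mRNA, was at 159 TPM in mouse neuropil and 81.3 TPM in mouse somata, and at 201 TPM in rat neuropil and 98.4 TPM in rat somata. These 3 mRNAs were higher in neuropil in both species, by 0.98, 0.83 and 0.99 on average. Ddn, Camk2a, Dlg4 (PSD-95), Shank1 and Shank3 made up the rest of the 8. The 4 that were lower were Bdnf, a neurotrophin, with a mean of -0.68, Grin1, the obligatory subunit of NMDA receptors, with -0.69, Calm3, a calmodulin gene, with -0.35, and Nrgn, a calmodulin-binding protein of dendrites, with -0.71.

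Postsynaptic scaffold and receptor genes held calls on both sides. Of 22 postsynaptic scaffold genes 9 were higher in neuropil (40.9%) and 4 were lower (18.2%), beside 17.4% and 9.62% of all genes. The list shares 5 members with the dendritic list, Dlg4, Dlgap3, Psd, Shank1 and Shank3. All 5 are among the 9, so these calls are counted in both lists. The 9 included Homer2, at 56.5 TPM in mouse neuropil and 34.3 TPM in mouse somata, and at 96.6 TPM in rat neuropil and 44.2 TPM in rat somata. Its relative Homer1 was lower, at 333 TPM in mouse neuropil and 404 TPM in mouse somata, and at 110 TPM in rat neuropil and 191 TPM in rat somata. Baiap2, a regulator of actin in spines, was lower as well (-0.85, limma adjusted p = 0.0011). Of 22 glutamate receptor genes 4 were higher (18.2%), a share near the background, and 7 were lower (31.8%). The 7 encode receptors and subunits known from pyramidal neurons, and the cells behind the higher and lower calls were not tested. The counts of the scaffold and receptor lists were not tested against each other. Gria2, the AMPA receptor subunit that limits calcium entry, was at 441 TPM in mouse neuropil and 822 TPM in mouse somata, and at 333 TPM in rat neuropil and 662 TPM in rat somata. Its mean difference was -0.94 ± 0.10 (SE, adjusted p = 0.000614), and Gria1 (-0.74), Gria3 (-0.83), Grin1 (-0.69), Grin2a (-0.89), Grin2b (-0.50) and the metabotropic receptor gene Grm5 (-0.58) were lower too. The 4 that were higher were Grin2c, Grm3, Grik2 and Grik4. Grik4 is also counted in the list of dentate gyrus, CA3 and thalamus markers below. Grm3 is a receptor that astrocytes also carry, and it stood at 115 TPM in mouse neuropil and 57.4 TPM in mouse somata, and at 153 TPM in rat neuropil and 92.0 TPM in rat somata.

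More ion channel and presynaptic genes were lower in neuropil than higher. Of 28 voltage-gated and related channel genes 3 were higher in neuropil (10.7%, beside 17.4% of all genes) and 8 were lower (28.6%, beside 9.62%), with medians of -0.18 in mouse and -0.15 in rat. The A-type potassium channel genes Kcnd2 and Kcna4 were among the 8, with mean differences of -0.84 and -0.93, and so were Scn2a1 (-0.67), a sodium channel of excitatory neurons, and Kcnj3 (-0.70), a G protein gated potassium channel. The 3 that were higher were Cacna1c, Hcn2 and Kcnj10, the last a potassium channel of astrocytes. Of 28 presynaptic genes 5 were higher (17.9%), a share like that of all genes, and 8 were lower (28.6%). Syp, the vesicle protein synaptophysin, was at 698 TPM in mouse neuropil and 1011 TPM in mouse somata, and at 476 TPM in rat neuropil and 749 TPM in rat somata. Sv2b, another vesicle protein, had a mean difference of -0.75. The higher ones were led by Rph3a and Rims3, at 0.98 and 0.96. Rph3a, which binds Rab3 on vesicles, was at 26.7 TPM in mouse neuropil and 12.9 TPM in mouse somata, and at 44.6 TPM in rat neuropil and 22.2 TPM in rat somata.

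Markers of the CA1 pyramidal neuron were not all confined to the somata layer. Of 14 tested, 4 were lower in neuropil (28.6%, beside 9.62% of all genes), 2 were higher (14.3%, near the 17.4% of all genes) and 8 did not pass. Neurod6, a transcription factor of excitatory neurons, was at 224 TPM in mouse neuropil and 451 TPM in mouse somata, and at 261 TPM in rat neuropil and 549 TPM in rat somata. Fibcd1, a CA1 marker that encodes an acetyl-binding membrane protein, was at 97.9 TPM in mouse neuropil and 197 TPM in mouse somata, and at 121 TPM in rat neuropil and 232 TPM in rat somata. Wfs1, another CA1 marker, was at 59.0 TPM in mouse neuropil and 90.2 TPM in mouse somata, and at 166 TPM in rat neuropil and 408 TPM in rat somata. In both species these 3 stood lower in neuropil but were still found there. TPM do not tell what share of a gene's RNA lies in a layer. The 15 list genes in both tables, tested or not, summed to 1560 TPM in mouse neuropil and 2294 TPM in mouse somata, a ratio of 0.680. In rat they summed to 2057 TPM in neuropil and 3150 TPM in somata, a ratio of 0.653. Tbr1 and Zbtb20 were the 2 that were higher, and Tbr1 was low in each library, between 3.56 and 11.8 TPM. Spink8, a mouse CA1 marker, was at 258 TPM in mouse neuropil and 586 TPM in mouse somata but at 1.83 TPM in rat neuropil and 0.471 TPM in rat somata, so that the rat difference has the other sign at a low level.

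Glial and vascular markers were higher in neuropil almost without exception. All 18 astrocyte, all 17 oligodendrocyte and all 16 endothelial and mural markers tested passed, and 14 of 15 microglial ones, with 0 lower in any of these lists, beside 17.4% of all genes higher. The exception was Cd68, at 10.5 TPM in mouse neuropil and 7.71 TPM in mouse somata, and at 1.01 TPM in rat neuropil and 0.559 TPM in rat somata. Median differences were 1.34 in mouse and 0.99 in rat for astrocytes, 0.76 and 0.85 for the oligodendrocyte lineage, 1.23 and 1.02 for microglia, and 1.47 and 1.22 for vessels. No marker of these 4 lists was at 0 in any layer.

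Astrocyte genes were the most abundant of these. The summed level of the 18 was 23183 TPM in mouse neuropil and 8460 TPM in mouse somata, and 25699 TPM in rat neuropil and 12856 TPM in rat somata. Apoe, the main lipid carrier of the brain, alone gave 9092 TPM in mouse neuropil and 3055 TPM in mouse somata, and 9226 TPM in rat neuropil and 4501 TPM in rat somata. Aqp4, the water channel of astrocyte end-feet, was at 273 TPM in mouse neuropil and 70.3 TPM in mouse somata, and at 579 TPM in rat neuropil and 248 TPM in rat somata. The astrocyte ratio was 2.74 in mouse and 2.00 in rat, so mouse showed the larger difference, a contrast between species that was not tested. TPM add up to the same total in every library. In these tissue samples more cells of a type, more RNA per cell and less RNA from other cells thus cannot be told apart.

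The other cell types followed with smaller sums. Oligodendrocyte markers summed to 5453 TPM in mouse neuropil and 3331 TPM in mouse somata, and to 10741 TPM in rat neuropil and 5895 TPM in rat somata. Within that list the precursor genes Pdgfra and Cspg4 differed more (1.25 and 1.28) than the myelin genes Mbp (0.82) and Mobp (0.73), a contrast that was not tested. Microglial markers summed to 1920 TPM in mouse neuropil and 801 TPM in mouse somata, and to 1832 TPM in rat neuropil and 888 TPM in rat somata. C1qc, a chain of the complement factor C1q, had the largest microglial difference at 1.44. Endothelial and mural markers summed to 1234 TPM in mouse neuropil and 453 TPM in mouse somata, and to 1033 TPM in rat neuropil and 451 TPM in rat somata. These sums stand beside every gene called higher or lower in neuropil in this text, and their part in those calls was not tested. The dendritic mRNAs that were higher had mean differences of 0.46 to 0.99, below the mean-difference medians of the astrocyte (1.13), microglial (1.18) and vascular (1.33) lists. The median of the oligodendrocyte list was lower, at 0.78, and Dlgap3, Ppp1r9b, Ddn and Psd lay above it.

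**Figure D3:**
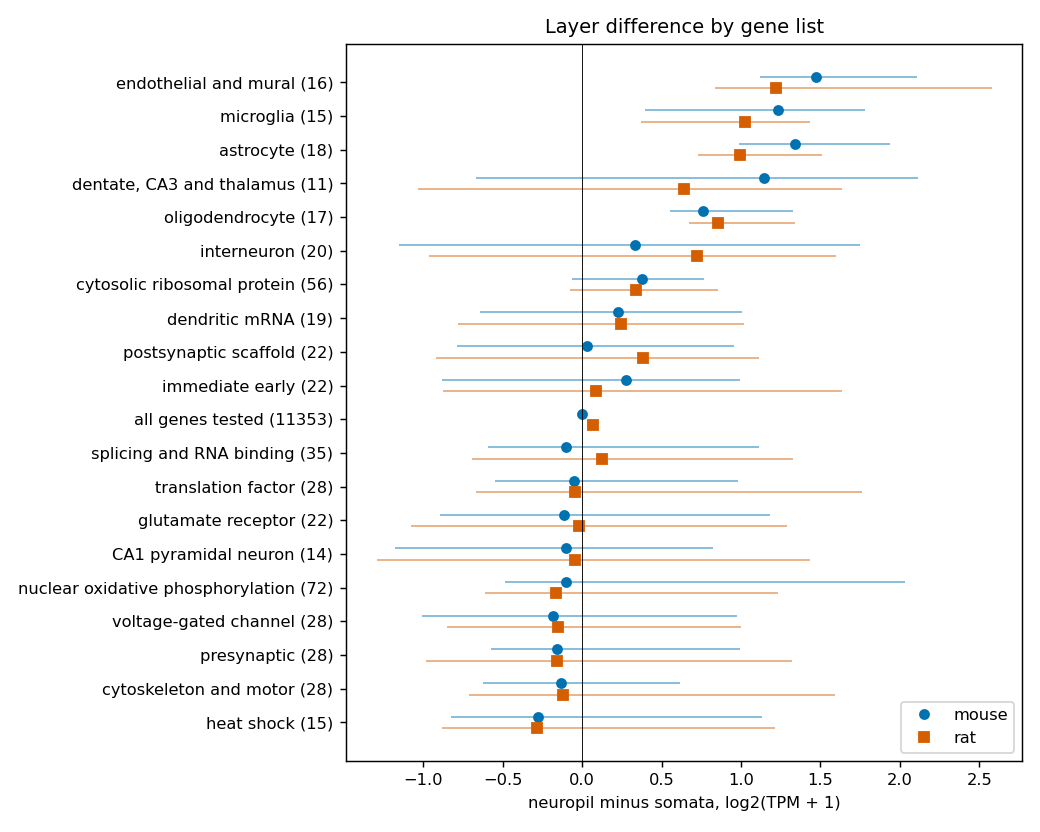
Difference between neuropil and somata in log2(TPM + 1) for 19 gene lists and all genes tested, with the number of genes tested in brackets; points are medians in mouse (circles) and rat (squares), and lines run from the lowest to the highest member of a list. Vascular, microglial, astrocyte and oligodendrocyte lists lie wholly above 0 in both species, whereas neuronal lists span 0.

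Interneuron genes divided between the layers. Of 20 tested, 8 were higher in neuropil (40%, beside 17.4% of all genes) and 4 were lower (20%, beside 9.62%). The 4 were Sst, Pvalb, Cck and Tac1. Sst, the neuropeptide somatostatin, was at 134 TPM in mouse neuropil and 300 TPM in mouse somata, and at 109 TPM in rat neuropil and 214 TPM in rat somata. Pvalb, the calcium buffer of basket cells, was at 47.8 TPM in mouse neuropil and 74.6 TPM in mouse somata, and at 43.1 TPM in rat neuropil and 73.1 TPM in rat somata. The 8 that were higher held Reln, a secreted glycoprotein made by interneurons of the outer layer, at 42.6 TPM in mouse neuropil and 19.2 TPM in mouse somata, and at 36.7 TPM in rat neuropil and 11.4 TPM in rat somata. Htr3a and Calb2 were higher too, as were the GABA synthesis genes Gad1 (0.61) and Gad2 (0.89) and the transcription factor genes Dlx1 and Dlx2. Both GABA synthesis genes were thus higher in neuropil while Sst and Pvalb were lower, in both species. Cck and Tac1 are also made outside interneurons.

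Genes of neighbouring regions were measured as a check of the dissection. Of 11 tested dentate gyrus, CA3 and thalamus markers 6 were higher in neuropil (54.5%, beside 17.4% of all genes) and 2 were lower (18.2%, beside 9.62%). Prkcd, a protein kinase C gene abundant in thalamus, was at 17.6 TPM in mouse neuropil and 5.94 TPM in mouse somata, and at 11.9 TPM in rat neuropil and 5.10 TPM in rat somata. Prox1, the transcription factor of dentate granule cells, had a mean difference of 1.43. Cpne4 was at 66.0 TPM in mouse neuropil and 14.5 TPM in mouse somata, and at 36.2 TPM in rat neuropil and 11.6 TPM in rat somata. C1ql3 and Calb1 were lower in neuropil. The 13 list genes in both tables, tested or not, summed to 355 TPM in mouse neuropil and 301 TPM in mouse somata. In rat they summed to 482 TPM in neuropil and 658 TPM in somata, so that the sum had opposite directions in the species. Calb1, C1ql3 and Bok gave most of the rat somata sum, at 264, 202 and 134 TPM. The 6 genes that were higher and the 2 that were lower each had the same direction in both species. Of the choroid plexus and ependyma list 3 genes reached the minimum and 1, Kcnj13, was higher, at no more than 4.80 TPM in any library. The part of dissected neighbouring tissue in the other results was not tested.

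Ribosomal protein mRNAs were higher in neuropil in 33 of 56 cases (58.9%, beside 17.4% of all genes), by a small amount. None of the 56 was lower by limma's test, and 54 lay above 0 in both species. Their median was 0.38 in mouse and 0.34 in rat. Rplp0, of the ribosomal stalk, was at 672 TPM in mouse neuropil and 416 TPM in mouse somata, and at 1351 TPM in rat neuropil and 784 TPM in rat somata. Rpsa was at 568 TPM in mouse neuropil and 344 TPM in mouse somata, and at 1103 TPM in rat neuropil and 662 TPM in rat somata. The class summed to 60250 TPM in mouse neuropil and 46290 TPM in mouse somata, and to 66415 TPM in rat neuropil and 52512 TPM in rat somata. Glia make ribosomal proteins too, and the glial sums given above were also higher in neuropil. Their part in the ribosomal protein differences was not tested.

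Translation factors were found in both directions. Of 28 tested 7 were higher (25%) and 4 were lower (14.3%), beside 17.4% and 9.62% of all genes. Eef2, the elongation factor that moves the ribosome along, was at 1298 TPM in mouse neuropil and 677 TPM in mouse somata, and at 1509 TPM in rat neuropil and 796 TPM in rat somata. Eif4a2, a helicase of initiation, went the other way, at 1239 TPM in mouse neuropil and 1816 TPM in mouse somata, and at 793 TPM in rat neuropil and 1259 TPM in rat somata. Few nuclear genes of oxidative phosphorylation differed, with 1 of 72 higher (1.39%), 4 lower (5.56%) and a median of -0.10 in mouse and -0.16 in rat. The 1 was Ndufa4l2 (1.63), at 8.28 TPM in mouse neuropil and 1.27 TPM in mouse somata, and at 14.3 TPM in rat neuropil and 5.52 TPM in rat somata.

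Of 28 cytoskeleton and motor genes 1 was higher in neuropil (3.57%, beside 17.4% of all genes) and 5 were lower (17.9%, beside 9.62%). Dynll1, a dynein light chain, was at 1231 TPM in mouse neuropil and 1803 TPM in mouse somata, and at 1267 TPM in rat neuropil and 2075 TPM in rat somata. Dync1i1, an intermediate chain of the same motor, and Kif3a, a kinesin, were lower too, at -0.64 and -0.47. Tubb2b was the 1 that was higher (1.05). Heat shock genes had medians of -0.28 in both species, with 1 of 15 higher (6.67%) and 7 lower (46.7%). Hsph1, a chaperone of the Hsp110 family, was at 124 TPM in mouse neuropil and 199 TPM in mouse somata, and at 124 TPM in rat neuropil and 230 TPM in rat somata. The small heat shock gene Hspb1 was the 1 that was higher, with a mean difference of 1.17.

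Immediate early genes, which respond to activity and to the handling of slices, were found in both directions. Of 22 tested 8 were higher in neuropil (36.4%, beside 17.4% of all genes) and 2 were lower (9.09%), near the 9.62% of all genes. Fos was at 77.7 TPM in mouse neuropil and 38.7 TPM in mouse somata, and at 261 TPM in rat neuropil and 114 TPM in rat somata. Jun, Fosb, Ier2, Klf4, Btg2, Dusp1 and Atf3 were the other members that were higher, at mean differences of 0.90 to 1.21. Nr4a1, which follows neuronal activity, was at 8.80 TPM in mouse neuropil and 17.0 TPM in mouse somata, and at 20.1 TPM in rat neuropil and 28.3 TPM in rat somata, and was lower. Homer1, counted in the scaffold list too, was the other that was lower. Npas4, Egr3 and Egr4 had mean differences of -0.60, -0.47 and -0.67 and did not pass. Nr4a2 (0.24) and Junb (0.13) did not pass either. Of the 22 genes, 11 lay above 0 in both species and 9 below 0 in both.

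Among 35 splicing and RNA-binding genes 5 were higher (14.3%) and 4 were lower (11.4%), shares near the 17.4% and 9.62% of all genes. Qk, a regulator of glial RNAs that also promotes circRNA formation, was at 348 TPM in mouse neuropil and 161 TPM in mouse somata, and at 191 TPM in rat neuropil and 88.2 TPM in rat somata. Elavl2 and Celf4, of neuronal mRNA-binding families, were higher at 0.65 and 0.61, and the neuronal splicing factors Rbfox1 and Rbfox3 were lower at -0.54 and -0.45. Nuclear noncoding RNAs could be read across species for 1 gene, Snhg11, which was lower in neuropil (-0.50). In mouse alone, with 1 library a layer and no test, Malat1, a nuclear RNA, was at 9223 TPM in neuropil and 8907 TPM in somata and Meg3 at 1186 TPM in neuropil and 1298 TPM in somata. Miat and Rian were lower in mouse neuropil, at 43.8 and 435 TPM, than in mouse somata, at 69.1 and 581 TPM. Rmst and Pvt1 were higher in mouse neuropil, at 22.4 and 20.3 TPM, than in mouse somata, at 7.82 and 10.6 TPM, and their differences of 1.41 and 0.87 were the largest of the 9 noncoding RNAs read in mouse. Malat1 and Meg3 thus stood at near equal levels in the layers.

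CircRNAs as a whole were more abundant in neuropil, by nearly the same factor in each species. Levels of circRNAs are in RPM, back-splice reads multiplied by a scaling factor for each library. Their sum was 26416 RPM in mouse neuropil and 12909 RPM in mouse somata, a ratio of 2.05 (95% interval 2.00 to 2.09). In rat it was 25907 RPM in neuropil and 12950 RPM in somata, a ratio of 2.00 (1.96 to 2.04). The intervals are exact and cover counting error only, and with 1 library a layer no test was made. Each RPM value was a whole multiple of what 1 read is worth, which gave whole reads for 100% of the values within 0.1 of a read. What the authors scaled the reads to is not stated, so the ratio rests on that scaling; by raw reads it was 1.75 in mouse and 1.55 in rat.

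More kinds of circRNA were also seen in neuropil, in step with the number of reads. Mouse neuropil held 8017 circRNAs and mouse somata 5667, and rat neuropil held 8509 and rat somata 6339. Drawn down to the reads of the somata library, the neuropil libraries were expected to show 5709 circRNAs in mouse and 6449 in rat, close to the somata numbers. The circRNAs were of like size in the layers, with a median span per read of 11669 bases in mouse neuropil and 11518 in mouse somata, and of 12335 in rat neuropil and 12341 in rat somata. Most single circRNAs moved with the total. Of 685 mouse circRNAs with at least 10 reads over both layers 638 were higher in neuropil by RPM and 47 lower, and of 718 rat circRNAs 650 were higher and 68 lower. A 2-fold difference was met by 353 mouse circRNAs higher and 7 lower, and by 352 rat circRNAs higher and 5 lower.

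**Figure D4:**
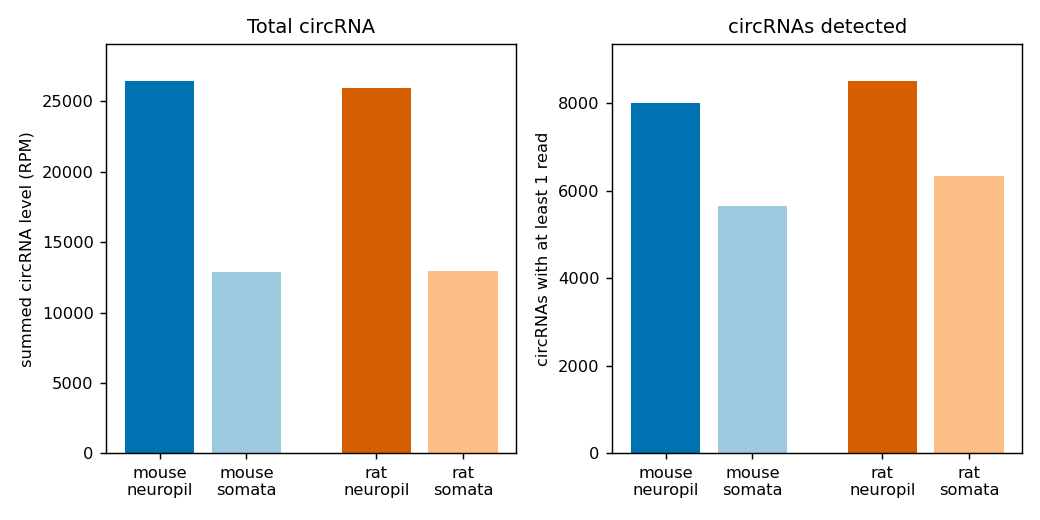
Summed circRNA level in RPM (left panel) and number of circRNAs with at least 1 read (right panel) in each of the 4 libraries; each bar is 1 library and both axes start at 0. Both neuropil bars stand above the somata bar of their species, at 26416 against 12909 RPM in mouse and 25907 against 12950 RPM in rat.

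Coordinates of the builds mm9 and rn5 cannot be matched to each other here, so circRNAs were summed over their deposited host gene. Of 3349 hosts in both species 401 had at least 10 reads in each. Among these 365 (91.0%) were higher in neuropil in both species, 1 was lower in both, Ralyl, and 35 differed in direction. By limma 17 hosts were higher (4.24%) and 0 were lower at an adjusted p of 0.05, while 233 had an unadjusted p under 0.05 and edgeR on the recovered reads called 25 higher and 0 lower. The number higher by limma moved widely with the settings, to 288 with a pseudocount of 5 reads, 158 with at least 20 reads in each species and 374 with no such minimum, and 0 were lower under each of these. A 2-fold increase in both species was met by 97 hosts (24.2%). The median difference was 0.97 in mouse and 0.99 in rat. For the linear genes of the same 401 hosts it was 0.02 and 0.01. TPM add up to the same total in every library and the circRNA RPM do not, so these medians are on unlike scales. When the circRNA libraries were scaled to equal totals, 0 hosts passed in either direction. The size of a host's difference in mouse said little about that in rat, with a correlation of 0.01 over the 401 hosts. Many of these rest on few reads. Over the 191 hosts with at least 20 reads in each species the correlation was 0.04.

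The hosts with the largest shared increase were Ntrk2, Mllt10, Cacna1a, Crim1, Atrnl1 and Sobp. CircRNAs of Atrnl1 (attractin-like 1) summed to 79.1 RPM in mouse neuropil and 20.3 RPM in mouse somata, and to 147 RPM in rat neuropil and 49.3 RPM in rat somata. This host passed the test (mean 1.74 ± 0.18 SE, limma adjusted p = 0.0459). CircRNAs of Ntrk2, the gene of the BDNF receptor TrkB, rested on 17 reads in mouse neuropil and 4 in mouse somata, and on 20 in rat neuropil and 6 in rat somata, and did not pass. Those of Cacna1a, a presynaptic calcium channel gene, rested on 17 reads in mouse neuropil and 5 in mouse somata, and on 15 in rat neuropil and 5 in rat somata, and did not pass either. The 5 other largest ones reached ratios of 3.02 to 4.98 but with wide counting intervals.

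Hosts chosen for their known circRNAs varied around the total. CircRNAs of Rims1, an organiser of the presynaptic active zone, summed to 163 RPM in mouse neuropil and 74.9 RPM in mouse somata, and to 95.4 RPM in rat neuropil and 49.3 RPM in rat somata. Rims1 was the only 1 of the 11 tested that passed limma's threshold (1.03 ± 0.12 SE, adjusted p = 0.0459). CircRNAs of Rims2 summed to 118 RPM in mouse neuropil and 51.8 RPM in mouse somata, and to 71.2 RPM in rat neuropil and 35.6 RPM in rat somata. Those of Homer1 summed to 58.5 RPM in mouse neuropil and 32.4 RPM in mouse somata, and to 143 RPM in rat neuropil and 82.5 RPM in rat somata. Its main circRNA, at chr13:94111711-94126034 in mm9, had 44 reads in mouse neuropil and 27 in mouse somata, and the one at chr2:42147315-42162026 in rn5 had 130 reads in rat neuropil and 92 in rat somata. After scaling, these ratios were 1.91 (1.16 to 3.21) and 1.83 (1.39 to 2.42), whereas the linear Homer1 mRNA was lower in neuropil.

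Some of these hosts stayed near even. CircRNAs of Mapk4, an atypical MAP kinase gene, had 13 reads in mouse neuropil and 15 in mouse somata, and 23 in rat neuropil and 28 in rat somata, with ratios by RPM of 1.02 (0.445 to 2.29) and 1.06 (0.586 to 1.92). In rat the interval lies below the ratio of all circRNAs, and in mouse it holds it. CircRNAs of Gria2 had 10 reads in mouse neuropil and 7 in mouse somata but 4 in rat neuropil and 6 in rat somata, too few to give a direction. Those of Grm5 had 26 reads in mouse neuropil and 14 in mouse somata but 7 in rat neuropil and 9 in rat somata, with ratios by RPM of 2.18 (1.1 to 4.51) and 1.01 (0.319 to 3.04). The main Hipk3 circRNA, at chr2:104310906-104312004 in mm9 and at chr3:101032994-101034092 in rn5, spans 1099 bases in either species and had ratios of 1.79 (1.18 to 2.73) in mouse and 3.56 (1.97 to 6.77) in rat. The circRNA of Tulp4 at chr17:6137211-6139156 in mm9 was among the most abundant, with 130 reads in mouse neuropil and 94 in mouse somata, but Tulp4 had only 6 reads in rat neuropil and 1 in rat somata and was not tested. Dlgap3, Erc2 and Pclo fell under the minimum as well. Rmst and Cdr1 were not in the hosts shared by the tables, and in mouse the Rmst circRNA at chr10:91537915-91599435 in mm9 had 24 reads in neuropil and 5 in somata, a ratio of 5.63 (2.10 to 18.9).

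CircRNAs were then set against the linear genes that host them. In the log2 ratio of circRNA to host gene, 71 of 401 hosts (17.7%) were higher in neuropil by limma and 0 were lower, with 197 at an unadjusted p under 0.05, and 342 lay above 0 in both species. The medians were 0.87 in mouse and 0.93 in rat. The largest shared differences belonged to genes whose mRNA was lower in neuropil while their circRNA was higher. The ranking takes the gene's difference from that of its circRNA, so it favours such genes. Nell2, a secreted neuronal glycoprotein, had circRNA at 68.3 RPM in mouse neuropil and 28.7 RPM in mouse somata, and at 35.6 RPM in rat neuropil and 11.3 RPM in rat somata. Its gene was at 524 TPM in mouse neuropil and 792 TPM in mouse somata, and at 425 TPM in rat neuropil and 840 TPM in rat somata. The circRNA was thus higher relative to its gene, by 1.83 in mouse and 2.58 in rat (limma adjusted p = 0.0215).

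The calcium release channel gene Ryr3 showed the same order, with 23 circRNA reads in mouse neuropil and 10 in mouse somata, and 16 in rat neuropil and 8 in rat somata. Its gene was at 43.5 TPM in mouse neuropil and 80.0 TPM in mouse somata, and at 25.3 TPM in rat neuropil and 42.6 TPM in rat somata. Cacna2d1, a calcium channel subunit gene, Rnf150, a ubiquitin ligase gene, and Ccdc132 completed the 5 largest, at 2.03, 2.17 and 2.07. Of the fixed hosts, Klhl2 (1.66), Homer1 (1.35) and Rims2 (0.95) passed in the ratio to their gene. No host had a lower ratio by the test, and the lowest, Erbb2ip and Bbs9, were at -0.27 and -0.21 and did not pass. The correlation of circRNA and gene differences over the hosts was 0.15 in mouse and 0.09 in rat. Reads inside a circle can also count toward the gene's TPM, and the part of this in the ratios was not tested. With equal circRNA totals and centred genes 0 hosts were higher.

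**Figure D5:**
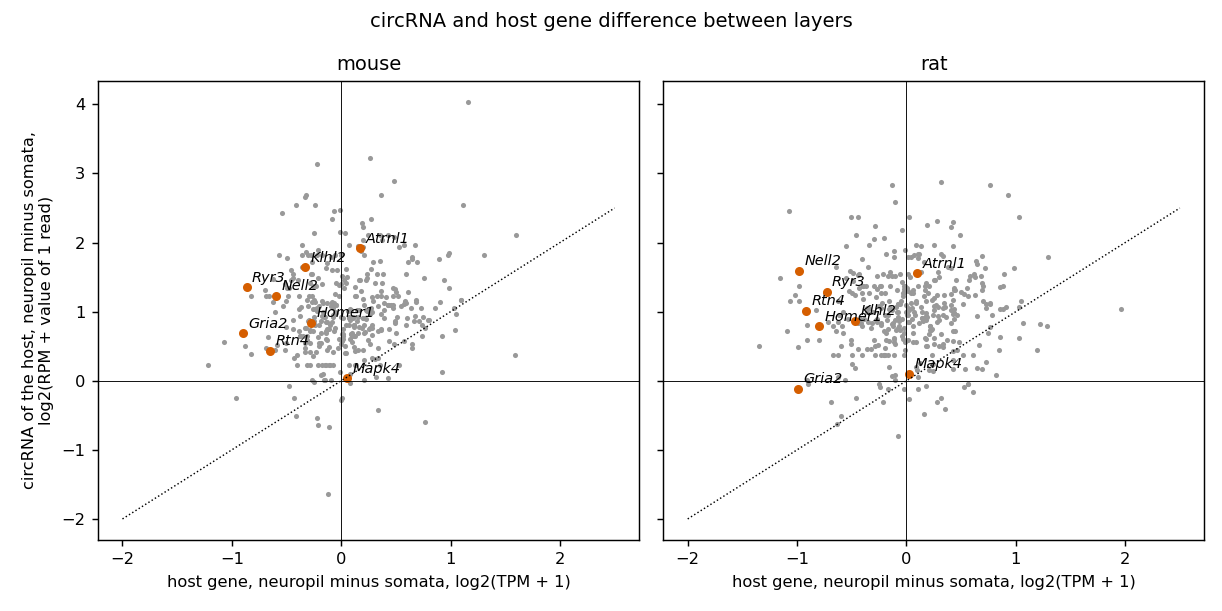
Difference between neuropil and somata of each host's circRNA, in log2(RPM + the value of 1 read), against that of its linear gene in log2(TPM + 1), for 401 hosts in mouse (left panel) and rat (right panel); the dotted line marks equal differences and 8 hosts are named. Points lie mostly above the dotted line, with medians near 1 for circRNA and near 0 for genes. TPM add up to the same total in each library and the circRNA RPM do not, so the axes are on unlike scales.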

How the data were processed

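The authors deposited a TPM value for each gene and, for each circRNA, RPM values of its back-splice junction reads. Per the submitters' processing notes, the builds were mm9 and rn5, and the tools included Cufflinks 2.2.1, TopHat2 2.0.6 and CASAVA 1.8.2. The program that called circRNAs is not given in the sources used. Members and gene lists were chosen with earlier results of these data known.

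Symbols were joined regardless of case, and 133 ambiguous ones were left out. Neuropil minus somata was taken within each species, since the tables were normalized separately, and fitted with limma 3.58.1 (R 4.3.3; intercept only, eBayes with a trend, two-sided, Benjamini-Hochberg, threshold 0.05) on log2(TPM + 1), for genes at 1 TPM or more in a library of each species. Pairing by species comes from the labels. Deviations from the layer means correlated at 0.90 within a species over 11353 genes. With only mouse and rat, this is the correlation between the layers of the mouse minus rat differences. It cannot show that the libraries of a species were dissected as a pair. CircRNA reads were recovered by dividing RPM by the value of 1 read (0.809 to 1.08 RPM), summed per host with at least 10 reads in each species and fitted alike with a pseudocount of 1 read; edgeR 4.0.16 on the recovered reads was an alternative. Ratios have exact 95% intervals from the counts. Genes named are the 12 largest shared differences each way at 5 TPM or more, the 4 largest of each list, fixed and largest circRNA hosts and genes opposite in the species; further list members were named after their values were seen. Scripts were tested on simulated data. Some list members are not reported here by name.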

Additional observations from a re-analysis of the deposited data

Results flagged for a closer look

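A set of 10 genes was noted because the species moved in opposite directions, with 1 library a layer in each; none of these contrasts was tested. The values are the rat minus the mouse difference. Penk, the enkephalin precursor, was at 32.9 TPM in mouse neuropil and 52.6 TPM in mouse somata but at 38.3 TPM in rat neuropil and 12.8 TPM in rat somata, a contrast of 2.18. Pls3, an actin bundling protein, was at 192 TPM in mouse neuropil and 353 TPM in mouse somata but at 73.7 TPM in rat neuropil and 36.7 TPM in rat somata, a contrast of 1.86. Pgam2 (2.52), Zfp462 (1.99) and Igfbp6 (2.00) were likewise lower in mouse neuropil and higher in rat neuropil. The reverse held for Dsn1 (-2.41), Ppil6 (-2.17), Irf9 (-1.65), Ddo (-1.59) and Napepld (-1.46), of which Ppil6 was at 16.4 TPM in mouse neuropil and 5.99 TPM in mouse somata but at 10.4 TPM in rat neuropil and 19.5 TPM in rat somata. CircRNAs of Gria2 were also opposite in the species (-0.80), on 4 to 10 reads a library.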

How the results depend on the processing

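Without the replicate block, that is without the species pairing, 0 genes were higher, 0 lower and 0 circRNA hosts higher, both as sums and relative to their gene, and 103 of 133 named results no longer passed. eBayes without a trend gave 339 genes lower. Under the other settings the genes higher numbered 1642 to 1803 and those lower 944 to 1096. The 2-fold genes numbered 688 higher with a pseudocount of 0.1 TPM and 101 higher and 10 lower with 5 TPM, and 842 to 951 higher and 56 to 125 lower in a single species. Host sums higher by limma numbered 288 with a pseudocount of 5 reads, 374 with no filter, 158 with at least 20 reads and 0 with equal circRNA totals; those 2-fold higher numbered 47, 488, 49 and 1, and 193 to 194 in a single species. Relative to the host gene 37 were higher with a pseudocount of 0.2 reads, 207 with 5 reads, 112 with at least 20 reads and 0 with equal totals and centred genes, where 1, Nfix, was lower. Total circRNA ratios by raw reads were 1.75 and 1.55. With equal totals the mean turned negative for Mapk4 (-0.95), Gria2 (-0.73), Grm5 (-0.45), Rtn4 (-0.29), Dlgap1 (-0.26) and Homer1 (-0.20); with other pseudocounts it changed sign for Irf9 (-0.042), Ddo (0.015) and Pgam2 (-0.063). The cause was not tested. Leaving out a pair leaves no spread, so those counts have no test. CircRNA reads limit single hosts, and gene depth is unknown.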
